A study of Mus musculus with 4 samples.

Results

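Nonsense-mediated decay (NMD) factors are the proteins that recognise a ribosome stopped at a premature termination codon and send the messenger RNA to degradation. The 9 genes described here are Upf1, Upf2, Upf3a, Upf3b, Smg1, Smg5, Smg6, Smg8 and Smg9. They were chosen by name out of 37311 gene identifiers in the files, with earlier results of these data known. All 9 were among the 13809 genes that passed the count filter. In this pathway the exon junction complex, whose helicase core is eIF4A3, marks the places where introns were removed. UPF3 proteins bind that complex and UPF2 bridges them to the helicase UPF1, which the kinase SMG1 phosphorylates. Phosphorylated UPF1 then recruits SMG5 and SMG6, which start the destruction of the message.

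The samples were J1 mouse embryonic stem cells (strain 129S4/SvJae), grown feeder-free on gelatin with serum and leukaemia inhibitory factor. All were infected with short hairpins against eIF4A3 (2 hairpins per the labels), selected in puromycin for 3 days and harvested on day 4.5, after cycloheximide at 0.1 mg/mL for 1 min. The 2 groups were ribosome protected fragments (RPF, the stretches of RNA covered by ribosomes) and total RNA, each from 2 biological replicates of these eIF4A3 knockdown cells. No library from control cells was analysed here, so the values below describe knockdown cells and give no effect of the knockdown. Which hairpin each replicate received, and whether same-numbered libraries share a lysate, is not stated in the labels.

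Gene counts ran from 7615277 to 9434987 per library. Eif4a3, the target of the hairpins, stood at 202.6 ± 13.3 in RPF and 110.5 ± 13.9 in total RNA (CPM, counts relative to a library size scaled by the trimmed mean of M-values, TMM; SD, n = 2). The labelled cell type had its markers: 8 embryonic stem cell genes summed to 3856 to 5868 CPM over the 4 libraries, against 5.66 to 15.5 CPM for 8 fibroblast genes, of which Dcn was at 0 throughout. In bulk RNA, fewer cells carrying a message and less of it per cell cannot be told apart.

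Each ribosome reaches the coding frame from the capped 5′ end, and messages with a 5′ terminal oligopyrimidine (TOP) tract, a C followed by a run of C or T at that end, form a class with its own translational control. The windows around the annotated transcription starts of the 9 genes are shown to place them against that class. All 9 genes matched by symbol in RefSeq's table (GRCm38.p6, a later build than the mm9 of the counts). Each window is 30 bases, 15 before the start and 15 from it, 5′ to 3′ on the gene's strand, with the first 5 transcribed bases in capitals.
Upf1 (chr8:70353265-70353294, minus strand): accgcagcggtggcgGCGACggcggttcct
Upf2 (chr2:5951454-5951483, plus strand): cgggccctcgtctgcGAGAGcggcgggggg
Upf3a (chr8:13785600-13785629, plus strand): acaccgaattccaagGGAGGggctgcctag
Upf3b (chrX:37110308-37110337, minus strand): ctatttgttaggggcGGAGCtcctgaggtc
Smg1 (chr7:118243623-118243652, minus strand): ggcgggcggagccggGAGGCggggaagccg
Smg5 (chr3:88336245-88336274, plus strand): gctatcgcgagatttGATAGgtggaggagg
Smg6 (chr11:74925839-74925868, plus strand): cgccgcccgtccgtcGTGGTttcctggctg
Smg8 (chr11:87086763-87086792, minus strand): agggaccggaagaacGCTAGaggaagctct
Smg9 (chr7:24399613-24399642, plus strand): cagcccgcggcgcatGCGCCgagctagcag
In all 9 windows the first transcribed base was G. None of the 9 began with a C followed by at least 4 bases of C or T, a pattern found on the transcribed strand at 823 of 32851 windows in the table (2.51%). These are annotated starts, not cap sites measured in these cells.

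The comparison open to these libraries is RPF against total RNA, which asks how many footprints a gene had for its RNA relative to other genes. Of the 9 NMD factors, 5 had a higher ratio (Upf1, Upf3a, Upf3b, Smg8, Smg9), 2 a lower one (Smg1, Smg5), and 2 did not pass (Upf2, Smg6). So 7 of the 9 passed, against 41.7% of all tested genes. Of all tested genes 20.5% were higher and 21.2% lower in the same edgeR quasi-likelihood fit (adjusted p under 0.05). These shares are not matched for level: the median in total RNA was 82.8 CPM over the 9 and 21.9 CPM over all tested genes. Among the 9073 genes at a mean of at least 10 CPM, 2199 were higher and 2387 lower. The median log2 ratio was 0.65 over the 9 genes and -0.024 over all tested genes. In 6 of the 9 both RPF libraries lay above both total RNA libraries in CPM, against 34.9% of tested genes, and in 2 both lay below, against 37.9%.

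**Figure D1:**
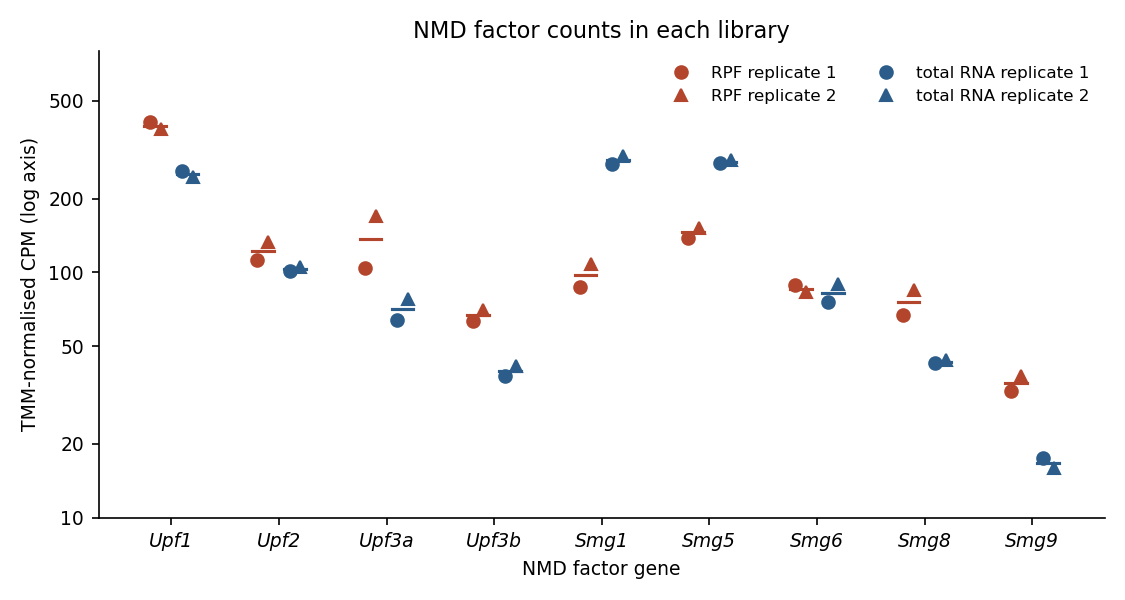
TMM-normalised CPM (log axis) of each NMD factor gene in the 2 RPF libraries (red) and the 2 total RNA libraries (blue), with circles for replicate 1, triangles for replicate 2 and short lines for the mean of 2. Smg1 and Smg5 are the 2 genes with both RPF points below both total RNA points, and the points of Smg6 overlap.

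Upf1 (ENSMUSG00000058301.6) is the RNA helicase at the centre of the pathway. Its counts were 3172 and 2623 in RPF (replicate 1, then 2, here and below) and 2656 and 2373 in total RNA, which is 410.1 and 382.4 against 260.04 and 244.9 CPM. Both RPF values lay above both total RNA values. The log2 ratio was 0.65 ± 0.15 SE (adjusted p = 0.0123), a 1.57-fold difference. The call rests on both total RNA libraries: without replicate 1 the adjusted p was 0.0926 and without replicate 2 it was 0.149. It was also lost with library size only (0.22, adjusted p = 0.231) and after correction for the coding share and length of all annotated exons (0.44, adjusted p = 0.0551).

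Upf2 (ENSMUSG00000043241.8), the bridge between UPF1 and the UPF3 proteins, did not pass. Its levels were 112.7 and 132.7 CPM in RPF and 101.1 and 105.4 CPM in total RNA, from 872, 910, 1033 and 1021 counts. Both RPF values were above both total RNA values, but the ratio was not past the threshold (0.25 ± 0.14, 95% interval -0.091 to 0.59, adjusted p = 0.204). With library size only its ratio was -0.18.

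Upf3a and Upf3b are paralogs that link UPF2 to the exon junction complex; Upf3b lies on the X chromosome. Upf3a (ENSMUSG00000038398.7) had 809 and 1160 counts in RPF and 652 and 758 in total RNA, or 104.6 and 169.1 against 63.8 and 78.2 CPM. RPF replicate 2 stood well above replicate 1, the widest gap between replicates among the 9 (136.9 ± 45.6 CPM, SD). Its ratio was 0.95 ± 0.24 (adjusted p = 0.0184), and 0.57 without RPF replicate 2. Upf3a lost its call after correction for coding share and length with 1 transcript a gene. Its log2 ratio per length was 1.15 over all annotated exons and 0.22 with 1 transcript a gene. Upf3b (ENSMUSG00000036572.9) had 63.1 and 70.4 CPM in RPF against 37.99 and 41.4 CPM in total RNA, from 488, 483, 388 and 401 counts. Its RPF values were both higher, with a ratio of 0.75 ± 0.14 (adjusted p = 0.0067). Upf3b lost its call when total RNA replicate 1 was left out (adjusted p = 0.0534), and neither paralog passed with library size only (adjusted p = 0.156 for Upf3a and 0.175 for Upf3b).
The log2 ratio of Upf3a to Upf3b counts, which no scaling between libraries can change, was 0.73 and 1.26 in RPF and 0.75 and 0.92 in total RNA. These values overlap between the fractions.

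Smg1, Smg8 and Smg9 encode the kinase complex, in which SMG8 and SMG9 bind the kinase SMG1 and hold its activity in check. In CPM the message of the kinase had a lower ratio of footprints to RNA, and those of its partners a higher one. Smg1 (ENSMUSG00000030655.7) had 677 and 744 counts in RPF and 2837 and 2889 in total RNA, or 87.5 and 108.5 against 277.8 and 298.2 CPM. Both RPF values were far below both total RNA values, and the ratio was -1.56 ± 0.16 (adjusted p = 0.00098). It was the lowest of the 9, and 8.13% of all tested genes had a lower one.
Smg8 (ENSMUSG00000020495.7) had 67.1 and 84.4 CPM in RPF and 42.9 and 43.8 CPM in total RNA, from 519, 579, 438 and 424 counts. Its RPF values were both higher, with a ratio of 0.81 ± 0.16 (adjusted p = 0.00714). Smg9 (ENSMUSG00000002210.5) stood at 32.97 and 37.8 CPM in RPF and 17.5 and 15.9 CPM in total RNA (255, 259, 179 and 154 counts). Both RPF values lay above both total RNA values. Its ratio was the highest of the 9, at 1.08 ± 0.18 (adjusted p = 0.00411), with 90.9% of tested genes below it.
Smg8 lost its call with library size only (0.38, adjusted p = 0.146) and after correction for the coding share and length of all annotated exons (0.41, adjusted p = 0.0789). Per length, with RPF over coding length and total RNA over exon length, its direction turned: the log2 ratio was -1.10, against a median of -0.51 over tested coding genes, where Smg9 stood at 0.31 and Smg1 at -2.45. This rests on the lengths of all annotated exons. With 1 transcript a gene Smg8 stood at -0.51, close to the median of -0.44. Upf1 was also below the median over all exons (-0.92), and above it with 1 transcript a gene (-0.34).

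The same counts can be compared within one library without any scaling. These values restate the contrast and are no separate support for it. Smg1 counts were above those of Smg8 by 0.38 and 0.36 on the log2 scale in the RPF libraries and by 2.7 and 2.77 in the total RNA libraries. Against Smg9 the log2 ratio of Smg1 counts was 1.41 and 1.52 in RPF and 3.99 and 4.23 in total RNA. The mean differences between fractions were -2.36 and -2.64. In raw counts Smg8 against Smg9 differed far less between fractions (1.03 and 1.16 in RPF, 1.29 and 1.46 in total RNA). These count ratios are not corrected for length or coding share. Per length over all annotated exons, the log2 ratio of Smg8 (-1.10) lay between those of Smg1 (-2.45) and Smg9 (0.31). With 1 transcript a gene the values were -0.51, -2.48 and 0.17. With 2 libraries a fraction, an exact permutation test of one such value cannot give a two-sided p below 0.333, so these are descriptions.

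SMG5 and SMG6 act on phosphorylated UPF1. SMG6 is an endonuclease that cuts the message, while SMG5 helps to recruit phosphatase and decay enzymes. Smg5 (ENSMUSG00000001415.5) had 1073 and 1044 counts in RPF and 2848 and 2777 in total RNA, or 138.7 and 152.2 against 278.8 and 286.6 CPM. Both RPF values were far below both total RNA values (-0.96 ± 0.14, adjusted p = 0.00263). Smg6 (ENSMUSG00000038290.9) had 88.4 and 82.96 CPM in RPF and 75.8 and 89.8 CPM in total RNA, from 684, 569, 774 and 870 counts. Those ranges overlap, and the ratio of 0.05 ± 0.14 did not pass (95% interval -0.29 to 0.39, adjusted p = 0.804). Its sign turned with library size only, at a mean of at least 10 CPM and without total RNA replicate 1.
Within libraries the log2 ratio of Smg5 to Smg6 counts was 0.65 and 0.88 in RPF against 1.88 and 1.67 in total RNA, which do not overlap.

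**Figure D2:**
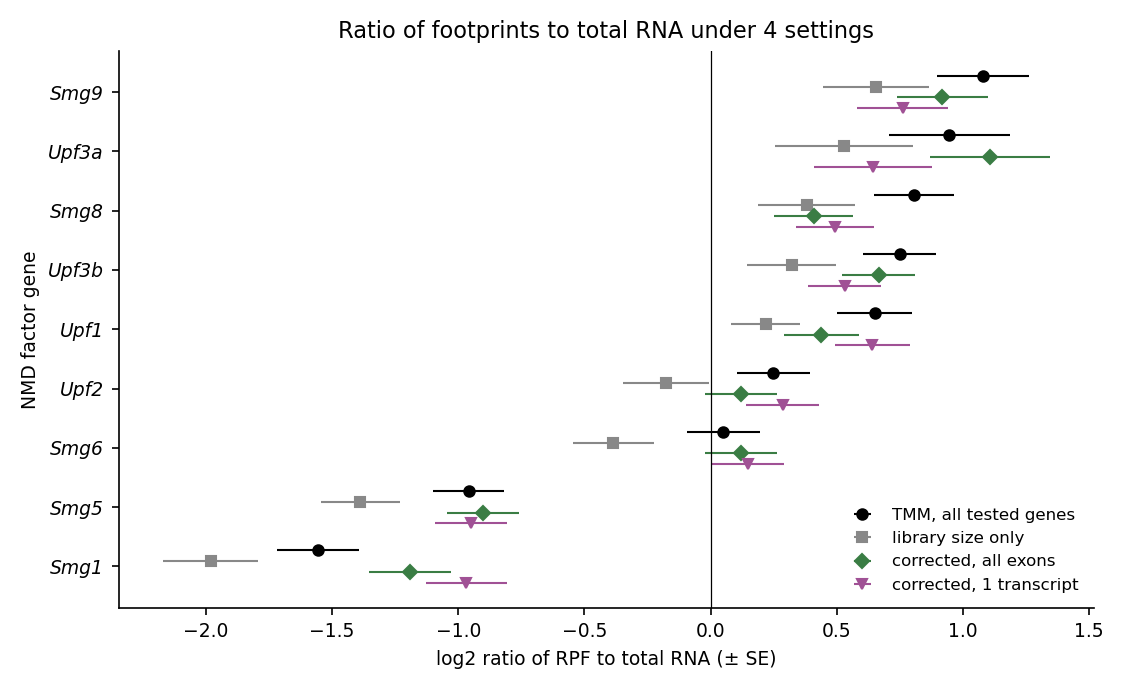
Log2 ratio of RPF to total RNA (points, with SE as bars) of the 9 genes under TMM scaling, library size only, and correction for coding share and length taken from all annotated exons or from 1 transcript a gene. Smg1 and Smg5 lie below 0 and Upf1, Upf3a, Upf3b, Smg8 and Smg9 above 0 at all 4 settings. Of these, only Smg1, Smg5 and Smg9 keep their call at each. Upf2 and Smg6 fall below 0 with library size only.

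The calls of Smg1, Smg5 and Smg9 held in all 14 alternatives. Over these the ratio ran from -1.98 with library size only to -0.97 for Smg1, the latter after correction with 1 transcript a gene (adjusted p = 0.00539). It ran from -1.39 to -0.88 for Smg5 and from 0.65 to 1.19 for Smg9, and tested against a fold of 1.5 the 3 passed too (adjusted p = 0.00336, 0.0281 and 0.0278). Upf1, Upf3a, Upf3b and Smg8 did not pass that stricter test (adjusted p = 0.349, 0.115, 0.163 and 0.121). Library size only moved the median of all tested genes to -0.46, and the number of NMD factors called higher fell to 1 (Smg9), with 2 lower. Relative to that shifted median Smg1 and Smg5 lay below and the other members above.

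As shares of the summed raw counts of the 9 genes, Smg1 and Smg5 were smaller in footprints and Upf1 was larger; per length the share of Upf1 was not larger (-3.4 percentage points, RPF minus total RNA, with overlapping libraries). Smg1 took 7.92% and 8.89% of the sum in RPF and 24.03% and 24.8% in total RNA. Smg5 took 12.6% and 12.5% in RPF and 24.1% and 23.8% in total RNA. Upf1 filled 37.1% and 31.3% of the sum in RPF against 22.5% and 20.3% in total RNA. Of the 9 shares, 6 were higher in both RPF libraries, 2 lower and 1 (Smg6) overlapping; because shares sum to a whole, a fall in one raises the others. With TMM scaling the sum itself was 1105 and 1220.5 CPM in RPF and 1156 and 1204 CPM in total RNA, which overlap. As a part of all gene counts, without that scaling, it was 0.09061% and 0.10992% in RPF and 0.13161% and 0.14197% in total RNA. Both RPF values then lay below both total RNA values, so the overlap depends on the scaling.

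**Figure D3:**
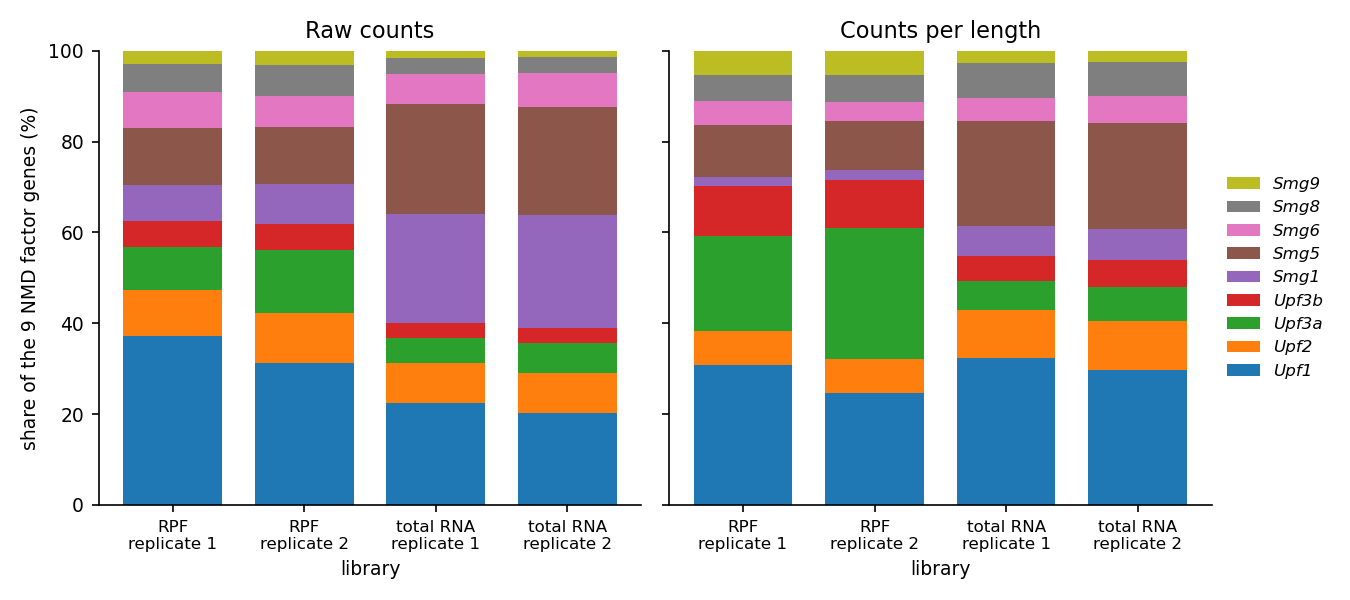
Share of each NMD factor gene (%) in the sum of the 9, per library, from raw counts (left) and from counts per kilobase of coding length in RPF or of exon length in total RNA (right). Smg1 and Smg5 take smaller shares in both RPF libraries on both scales, and Upf3a, Upf3b and Smg9 larger ones, while Upf2 and Smg8 turn from larger to smaller per length and Upf1 from larger to overlapping. The exon length used for Upf3a (5865 bases) exceeds that of its coding transcript (2057 bases).

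Levels of different genes were compared per length only, as counts per kilobase scaled to TPM over protein-coding genes, with coding length for RPF and exon length for total RNA. In footprints Upf1 (132.5 ± 6.46, SD, n = 2) and Upf3a (124.2 ± 52.7) led and did not differ beyond their spread. Smg5 (54.1 ± 8.82) and Upf3b (52.1 ± 9.11) followed and did not differ either. Next stood Upf2 (36.6 ± 7.76), Smg8 (29.03 ± 7.48), Smg9 (25.7 ± 4.97) and Smg6 (22.5 ± 1.19), where each overlapped its neighbour. Smg1 was lowest at 10.1 ± 2.51, below every library value of the other 8, and below the median of tested coding genes (16.99).
In total RNA per exon length Upf1 (251.5 ± 3.66) and Smg5 (187.3 ± 14.3) led without overlap, then Upf2 (86.95 ± 7.47). Smg8 (62.03 ± 4.42), Upf3a (56.01 ± 11.2) and Smg1 (55.4 ± 5.92) overlapped as neighbours, as did Upf3b (45.8 ± 5.37) and Smg6 (45.3 ± 7.97), with Smg9 last (20.7 ± 0.252). Smg1 was thus at 55.4 in total RNA, above the median of tested coding genes (24.9).
The exon length matters most for Upf3a, whose annotated exons sum to 5865 bases while its coding transcript has 2057. With 1 transcript a gene its level in total RNA was 100.99 ± 20.05 in place of 56.01, and Smg5 (185.2 ± 13.97) stood above Upf1 (159.1 ± 2.17).

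Coding share is the part of a gene's exons that is translated, where footprints fall, while total RNA reads cover whole messages. Taken over all annotated exons, it ran from 21.6% for Upf3a to 92.4% for Smg8, with a median of 35.8% over 12655 tested coding genes. In 1 coding transcript a gene, Upf3a stood at 61.7%, above the median of 53.1%, so its low place depends on the other annotated exons. Smg1 (45.9%) and Smg5 (43.9%) lay close to Smg9 (42.1%) and Smg6 (50.9%) in this feature and apart from them in ratio. They also differed in the length of all annotated exons: 23984 bases for Smg1, 6956 for Smg5, 3702 for Smg9 and 8453 for Smg6. What sets their ratios apart was not tested. A loess curve through all tested coding genes, fitted on coding share and exon length, gave -0.44 for Smg1, and the measured ratio lay -1.12 from it. Fitted on coding share alone, the curve gave 0.10 for Smg1. For Smg5 the curve on both features gave -0.13 and the distance was -0.83. For Smg9 it gave 0.088 and the distance was 0.99.

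**Figure D4:**
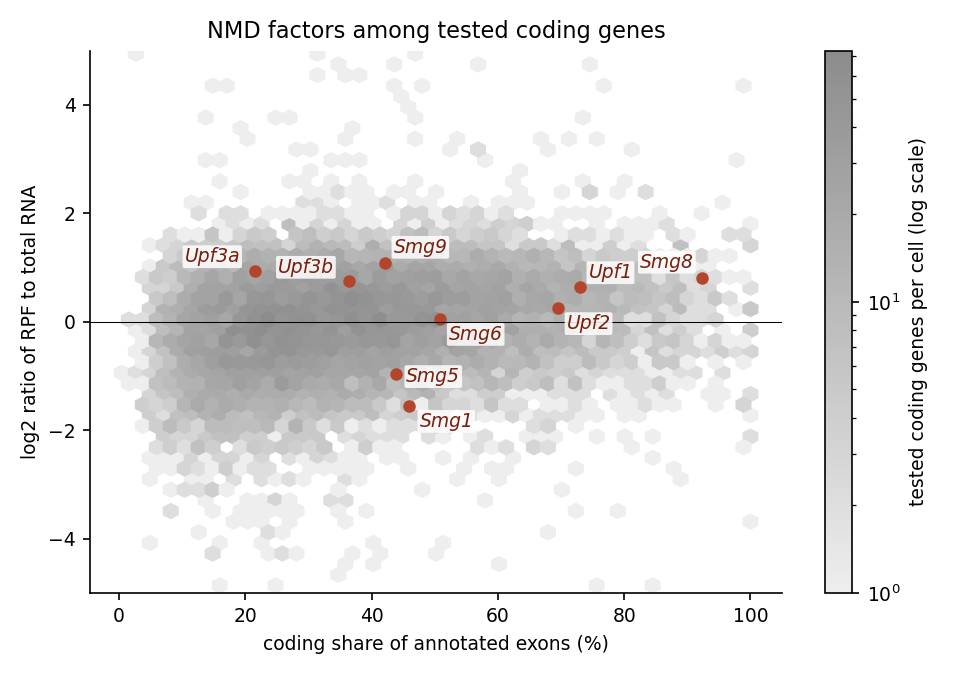
Log2 ratio of RPF to total RNA against the coding share of annotated exons (%) for 12610 tested coding genes (grey, darker cells hold more genes; 45 genes outside ±5 are not drawn), with the 9 NMD factors in red. Smg5 and Smg1 lie below 0 at a coding share close to that of Smg9, which lies above 0. Their exon lengths differ (6956, 23984 and 3702 bases).

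Messages can themselves be NMD substrates, and the known features for that are an intron far downstream of the stop codon, an upstream start codon or a long 3′ UTR. In the coding transcript taken for each gene from GENCODE M21, 0 of the 9 had a junction more than 50 bases after the stop codon, as had 0.372% of 12639 tested coding genes. Only transcripts typed as protein-coding were taken, and those annotated as NMD targets are a separate type. The choice of transcript thus nearly fixes this count, and nothing is drawn from it. At least 1 ATG stood in the 5′ UTR of 4 (Upf2, Smg1, Smg5, Smg9), against 51.2% of tested coding genes. Smg1 had a 3′ UTR of 4233 bases, longer than in 94.1% of those genes, and a coding sequence of 10977 bases, longer than in 99.4%. Smg5, at 1230 bases of 3′ UTR, was close to the median of 1016, and Smg8, at 221 bases, was the shortest of the 9. A transcript annotated as an NMD target was listed for 3 (Smg1, Smg5, Smg6), against 28.5% of tested coding genes. One annotated as a retained intron was listed for 5 (Upf3a, Smg1, Smg5, Smg6, Smg9), against 58.7% of those genes. The counts are per gene, so such transcripts were not measured apart from the coding ones.
Sequence shared with other genes was scarce: the part of 28-base stretches that occur in another gene ran from 0% (Smg8) to 4.05% (Upf3a). Exons of Upf1 (1.47%) and Smg6 (2.88%) lie partly opposite another gene, and whether the counting used strand is not stated.

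Other genes of the pathway were taken from lists by known function. For these and the following lists, the shares of all tested genes were 20.5% higher and 21.2% lower. With library size only, 1223 of all 13809 tested genes were higher and 4961 lower. The exon junction complex, which marks the places where introns were removed, was higher in 7 of 10 members with 0 lower and a median ratio of 0.83. The 7 include Eif4a3, the target of the hairpins (0.87, adjusted p = 0.00477). With library size only 5 were higher and 0 lower. Magoh (1.31 ± 0.13, adjusted p = 0.000891) and Rbm8a (1.23 ± 0.14) form the heterodimer that locks eIF4A3 on RNA; after correction for all annotated exons Magoh stood at 0.38 (adjusted p = 0.0566). The shell protein Casc3 (0.36 ± 0.15, adjusted p = 0.1003) and Rnps1 (0.38 ± 0.17, adjusted p = 0.117), a peripheral subunit, did not pass.
Among 9 other NMD-linked genes 3 were higher and 1 lower, with a median of 0.087 (2 higher and 4 lower with library size only). Ruvbl1 (1.34 ± 0.19) and Ruvbl2 (1.28 ± 0.15), AAA+ ATPases linked to SMG1 and its relatives, had higher ratios, as had Gspt1, the release factor eRF3a (0.76, adjusted p = 0.0209). Etf1, the release factor eRF1, had a lower one (-0.55 ± 0.16, adjusted p = 0.027), and Nbas, the next lowest, did not pass (-0.33 ± 0.19, adjusted p = 0.209). The call of Etf1 ended on leaving out RPF replicate 2 (adjusted p = 0.0936), total RNA replicate 1 (0.214) or total RNA replicate 2 (0.134), and after correction with 1 transcript a gene (0.185).

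SMG1 belongs to the phosphatidylinositol 3-kinase-related kinases, very large proteins that the TTT complex helps to fold. Of 8 other such kinases and TTT subunits, 0 were higher and 3 lower (Atm, Atr and Prkdc), with a median of -0.29 (0 and 6 with library size only). The shares of all tested genes were 20.5% higher and 21.2% lower. Atr stood at -0.77 ± 0.17 (adjusted p = 0.0124) and Prkdc at -0.70 ± 0.17, while Mtor (0.093 ± 0.13, adjusted p = 0.6) and the TTT subunit Tti1 (0.25 ± 0.15, adjusted p = 0.211) did not pass. Atr, the lowest of the 8, was still above Smg1 (-1.56 ± 0.16), a difference that was not tested. Atr lost its call without total RNA replicate 1 (adjusted p = 0.0871) and after correction for all annotated exons (0.126), and Prkdc after correction with 1 transcript a gene (0.0899).

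Enzymes of general messenger RNA decay, which act after the NMD factors, were lower in 7 of 17 and higher in 1, with a median of -0.19. Over all tested genes 21.2% were lower and 20.5% higher. The decapping enzyme Dcp2 (-1.93 ± 0.25, adjusted p = 0.00171) and the deadenylase Cnot7 (-1.75 ± 0.17) had the lowest ratios. Edc4, a scaffold of the decapping complex, was the 1 higher (0.71 ± 0.15, adjusted p = 0.00886), which was lost without either total RNA library (adjusted p = 0.0888 without replicate 1, 0.0589 without replicate 2). The exonuclease Dis3 did not pass (0.33 ± 0.17, adjusted p = 0.155). Under library size only, 0 were higher and 10 lower, against 1223 and 4961 of all 13809 tested genes.

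Genes with transcripts reported to be NMD-sensitive gave 7 higher and 3 lower of 18 tested, with a median of 0.36 (3 higher and 4 lower with library size only, and 5 higher and 0 lower without total RNA replicate 2). Over all tested genes 20.5% were higher and 21.2% lower. The splicing factor Srsf2 (1.48 ± 0.18, adjusted p = 0.00151) and uridine phosphorylase Upp1 (1.47 ± 0.17) were highest. Tbl2 (-0.79 ± 0.17, adjusted p = 0.00949) and the ribosomal protein gene Rpl12 (-0.72 ± 0.19, adjusted p = 0.0217) were lowest, and the stress response factor Atf4 was the third lower one (-0.65, adjusted p = 0.0135). Tbl2 lost its call without total RNA replicate 2 (adjusted p = 0.0866) and stood at -0.020 after correction with 1 transcript a gene. Leaving out RPF replicate 1 (adjusted p = 0.058), total RNA replicate 1 (0.146) or total RNA replicate 2 (0.14) ended the call of Rpl12. Tested against a fold of 1.5, Etf1, Atr, Prkdc, Edc4, Tbl2 and Rpl12 did not pass.

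**Figure D5:**
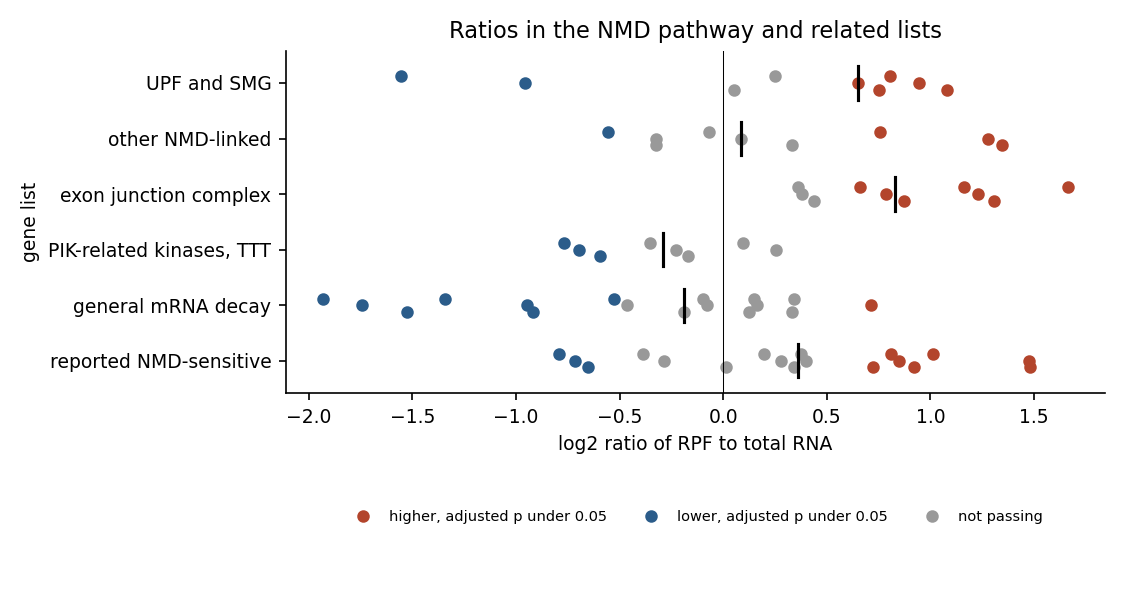
Log2 ratio of RPF to total RNA of each tested gene in 6 lists, coloured by its call at an adjusted p under 0.05, with the median of each list as a black line. UPF and SMG genes spread from -1.56 to 1.08, while the 10 exon junction complex genes all lie above 0 under TMM scaling, of which Casc3 and Rnps1 fall below 0 with library size only.

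The genes whose profile over the 4 libraries came closest to the extreme members were found by Euclidean distance of centred log2 CPM among 8723 coding genes at a mean of at least 10 CPM. For Smg9 these were Lyar (0.025), Ciao2b (0.037) and Edf1 (0.041). For Smg1 they were D5Ertd579e (0.021), 9430015G10Rik (0.056) and Mob1a (0.056). The likeness rests on 4 libraries and is a description.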

How the data were processed

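Raw read counts per gene were deposited by the authors for 4 libraries, not normalised, each file ending in HTSeq-style tallies. The submitters' processing notes name mm9 as the build and list HTSeq 0.11.2, edgeR 3.26.8, TopHat2 2.1.1 and Bowtie 1.2.3 as tools. Per the labels' protocols, reads were 50 bp and each RPF library was sequenced in 4 runs. Annotation, counted feature and strandedness: not given in the sources used here. Reads in the closing tallies, which name no gene, made up 32.0% and 35.9% of the RPF libraries and 40.7% and 43.4% of the total RNA libraries and were left out. Reads tallied as ambiguous between genes were 4.96% and 8.58% in RPF and 0.755% and 0.719% in total RNA, of all reads. Those tallied as in no feature were 5.95% and 6.66% in RPF and 23.4% and 26.2% in total RNA.

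Ensembl identifiers, versions dropped, were matched to GENCODE M21 (GRCm38) for symbols and features, which found 32621 of 37311 (87.4%). Genes passed filterByExpr (minimum count 10, minimum total 15). RPF was compared with total RNA over all 4 libraries with edgeR 4.0.16 under R 4.3.3 (limma 3.58.1 loaded), using TMM factors and a quasi-likelihood F test of fraction alone, two-sided, adjusted by Benjamini-Hochberg over all tested genes at 0.05. SE is the log2 ratio over the square root of F. The fit was tested on simulated data with 197 of 13451 genes changed 2-fold. It recovered 45.2% of these with 0 false calls. In the data a far larger part of the tested genes was called (41.7%), so these rates do not carry over to it. A gene that did not pass may still differ. For transcript features and the lengths of 1 transcript a gene, the transcript with the best APPRIS rank and then the longest coding sequence was taken.

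The members and gene lists were chosen with earlier results of these data known. All 9 members and Eif4a3 are named, and from each other list the 2 highest and 2 lowest ratios at a mean of at least 10 CPM and the members of counts of 5 or fewer. 1 gene of the NMD-linked list is not reported here. Alternatives were scaling by library size only or by DESeq2 size factors; the DESeq2 1.42.0 test; dropping the count filter, or requiring 10 CPM on average; coding genes only; a loess (span 0.5) correction for exon length and coding share; glmTreat with a 1.5-fold minimum; a block on replicate number; and leaving out each library. The same correction, and levels, with 1 transcript a gene were added after seeing the data.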

Additional observations from a re-analysis of the deposited data

How the results depend on the processing

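The number of NMD factors called lower was 2 in all 14 alternatives (Smg1 and Smg5), and the number called higher, 5 as reported, was 1 with library size only, 3 after correction for exon length and coding share, and 1 with glmTreat against a fold of 1.5. Over all genes the counts were 1223 higher and 4961 lower with library size only (19.8% of calls higher, against 49.2% as reported), 1155 and 1549 with glmTreat, and 4257 higher and 4365 lower with the replicate block. Leaving out 1 library at a time gave 1720 to 3341 higher and 1857 to 3440 lower genes and 3 to 5 higher NMD factors; the lone library left in a fraction is assumed to vary like the others. The lowest counts over all genes came without total RNA replicate 2, and the lowest of NMD factors, 3, without total RNA replicate 1. The replicate block also made a call of Upf2 (0.24, adjusted p = 0.0171) and changed no other call of the 9. Whether the numbers pair libraries is not given in the sources used here; deviations of same-numbered libraries correlated at 0.614 across 9021 genes at 10 CPM or more, which are not independent.

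Signs turned with library size only for Upf2 (-0.18), Smg6 (-0.39), Rnps1 (-0.058), Casc3 (-0.067), Dis3 (-0.11), Tti1 (-0.18) and Mtor (-0.34). Smg6 turned at a mean of at least 10 CPM (-0.032) and without total RNA replicate 1 (-0.072), and Tti1 after correction for exon length and coding share (-0.019); Smg6 reached 0.18 without total RNA replicate 2. Per length, the difference in share between RPF and total RNA turned for Upf1 (-3.4 percentage points), Upf2 (-3.19), Smg6 (-0.871) and Smg8 (-1.72). With the correction by 1 transcript a gene, Upf3a did not pass (0.64, adjusted p = 0.0735). Among the other named genes, 252 ratios under alternatives kept their direction and side of the threshold, 25 lost and 11 gained a call, and 6 changed sign; the cause was not tested.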
